A study of Mus musculus with 6 samples.

Results

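Plcxd2 and 9 phosphoinositide phospholipase C genes (Plcb1, Plcb3, Plcb4, Plcd1, Plcd3, Plcd4, Plce1, Plcg1 and Plcg2) were followed in 4T1 cells, a mouse line of mammary gland epithelial cancer used as a model of triple-negative breast cancer. These 10 genes of the 22116 named genes in the count table were taken by their symbols. They were chosen by name with the difference between the treatment groups in these libraries already known, so their values are a description and carry no test. Of the 10 genes, 7 passed the filter on low counts, Plcb1 and Plcd4 had a few reads and Plce1 had none. The cells were treated for 24 h with DMSO, the vehicle, or with 10 µM P3FI-90, an inhibitor of the histone demethylase KDM3B, and 3 mRNA libraries were sequenced per group. The labels do not say whether the libraries of a group came from separate cultures. The p-values thus set group differences against the spread between these libraries, which may be technical.

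Phospholipase C enzymes cut the membrane lipid PIP2 into inositol trisphosphate, which opens calcium channels of the endoplasmic reticulum, and diacylglycerol, which stays in the membrane and activates protein kinase C. The families differ in what switches them on. The beta enzymes answer to G proteins of the Gq class and to G protein beta-gamma dimers, the gamma enzymes to receptor and cytosolic tyrosine kinases, the delta enzymes to calcium, and the epsilon enzyme to small GTPases such as Ras. PLCXD2 belongs to a small group of proteins that hold the X part of the catalytic domain without the Y part or the regulatory domains of the classical enzymes. In GENCODE M21 the coding sequence of Plcxd2 has 340 codons, close to the 357 of Plcxd1 and the 321 of Plcxd3, whereas those of the 9 phosphoinositide phospholipase C genes run from 782 codons for Plcd1 to 2296 for Plce1.

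The upstream bases of 3 genes are shown because they lie at the ends of the range described here: of the 7 genes above the filter, Plcxd2 was highest after P3FI-90 relative to DMSO, and Plcb3 and Plcd1 were lowest. Each is the 250 bases before a start site in RefSeq (GRCm38.p6), 5′ to 3′ on the strand of the gene, with GC boxes (GGGCGG or its reverse complement) and CCAAT boxes on either strand in capitals. Plcd1 has a further RefSeq start site window, and only its first is shown. The windows are chr16:46010414-46010663 on the minus strand for Plcxd2, chr19:6969815-6970064 on the minus strand for Plcb3 and chr9:119093503-119093752 on the minus strand for Plcd1. None holds an exon of GENCODE M21. The Plcb3 window lies in an intron of the Plcb3 gene model, and the other two lie in no gene. The processing notes of the submitters name another build, GRCm39, so these positions are not those of the counted reads.
Plcxd2: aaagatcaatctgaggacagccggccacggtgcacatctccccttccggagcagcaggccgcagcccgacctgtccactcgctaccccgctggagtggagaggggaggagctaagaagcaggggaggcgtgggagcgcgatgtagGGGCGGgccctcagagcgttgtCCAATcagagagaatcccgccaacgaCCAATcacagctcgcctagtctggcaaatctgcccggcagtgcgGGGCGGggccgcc
Plcb3: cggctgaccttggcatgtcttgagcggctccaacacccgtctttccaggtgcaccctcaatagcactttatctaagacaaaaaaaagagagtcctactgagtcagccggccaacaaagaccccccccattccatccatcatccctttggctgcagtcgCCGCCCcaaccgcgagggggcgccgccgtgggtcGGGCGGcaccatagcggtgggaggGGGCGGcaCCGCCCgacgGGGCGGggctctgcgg
Plcd1: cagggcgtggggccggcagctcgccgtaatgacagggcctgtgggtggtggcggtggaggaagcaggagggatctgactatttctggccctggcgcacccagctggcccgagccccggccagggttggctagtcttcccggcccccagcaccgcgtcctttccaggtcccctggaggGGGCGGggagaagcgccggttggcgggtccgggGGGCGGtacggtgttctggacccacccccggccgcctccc
The Plcxd2 window has 2 GC boxes and 2 CCAAT boxes, the Plcb3 window 5 GC boxes and the Plcd1 window 2 GC boxes. Their G and C content is 65.6%, 64.4% and 72.8%.

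RefSeq promoter windows of 300 bases, which run 250 bases before to 50 after a start site, were found for all 10 genes, 13 windows in all. GC boxes were in 9 of these 13 windows, against 35.7% of the 32851 windows of all genes, and CCAAT boxes in 5, against 37.4%. A TATA box (TATAAA) was in 0 of the 13 (13.6% of all windows), an E-box (CACGTG) in 1 (7.15%), an AP-1 motif (TGANTCA) in 1 (7.81%) and the core of an interferon-stimulated response element (TTCNNTTT) in 2 (23.7%). The cAMP response element (TGACGTCA, 1.79% of all windows) and the C/EBP-ATF response element (TGATGNAA, 3.97%) were in 0. Both strands were searched, and a match describes letters only. The Plcxd2 window held 21 CpG dinucleotides, more than 75.2% of all windows, and the first Plcb4 window 50, more than 99.1%. The median over all windows was 7.

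The libraries held between 31327094 and 37395732 counts on named genes. Of the 12288 genes tested, 4908 rose and 4841 fell after P3FI-90 (quasi-likelihood test of edgeR, Benjamini-Hochberg adjusted p under 0.05), so that 79.3% were called (39.9% higher, 39.4% lower), and the groups did not overlap for 81.2%. Scaling by total counts alone gave 6179 higher and 3641 lower genes and moved the median log2 fold change of all genes from 0.013 to 0.23. Kdm3b itself had 81.3 ± 1.92 CPM in DMSO and 88.7 ± 1.59 after P3FI-90 (SD, n = 3), a log2 fold change of 0.13 (adjusted p = 0.0169 from the edgeR test). The 6 epithelial marker genes were all present and all fell under the TMM scaling used here, with Krt8 and Krt18 at log2 fold changes of −1.18 each and Epcam at −1.32. The smallest falls were −0.32 for Cdh1 and −0.25 for Cldn4. These are close in size to the move of the median under total counts, so they depend in part on the scaling. The 8 leukocyte markers summed to 0.931 to 2.51 CPM in DMSO and to 3.88 to 4.15 CPM after P3FI-90, with Adgre1 at 0 reads in every library and Csf1r as the largest part. Fibroblast markers summed to 40.3 to 41.4 CPM and then 28.6 to 31.3 CPM with Lum at 0, and endothelial markers to at most 0.961 CPM. The part of these marker levels in the values below was not tested. CPM is the usual depth-normalized read count, here with library sizes scaled by TMM.

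Plcxd2 (ENSMUSG00000087141) had 370, 314 and 367 reads in the DMSO libraries and 8477, 8730 and 7913 in the P3FI-90 libraries. On the scaled libraries this was 10.7, 10.8 and 10.7 CPM against 226, 224 and 221 CPM. The lowest P3FI-90 library was thus far above the highest DMSO library, and the libraries of a group lay close to each other. The ratio of the means was 20.9, with a log2 fold change of 4.38 (SE 0.044). Among all 12288 genes tested, 134 had a larger log2 fold change. The SD over the DMSO libraries was 0.566% of their mean, below the 5.34% that counting alone gives a library at this depth, so this SD understates the error. In bulk RNA, more cells that carry a transcript and more of it per cell cannot be told apart. Reads on Plcxd2 made up 0.000989% to 0.00100% of the counts on named genes in DMSO and 0.0238% to 0.0243% after P3FI-90.

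**Figure D1:**
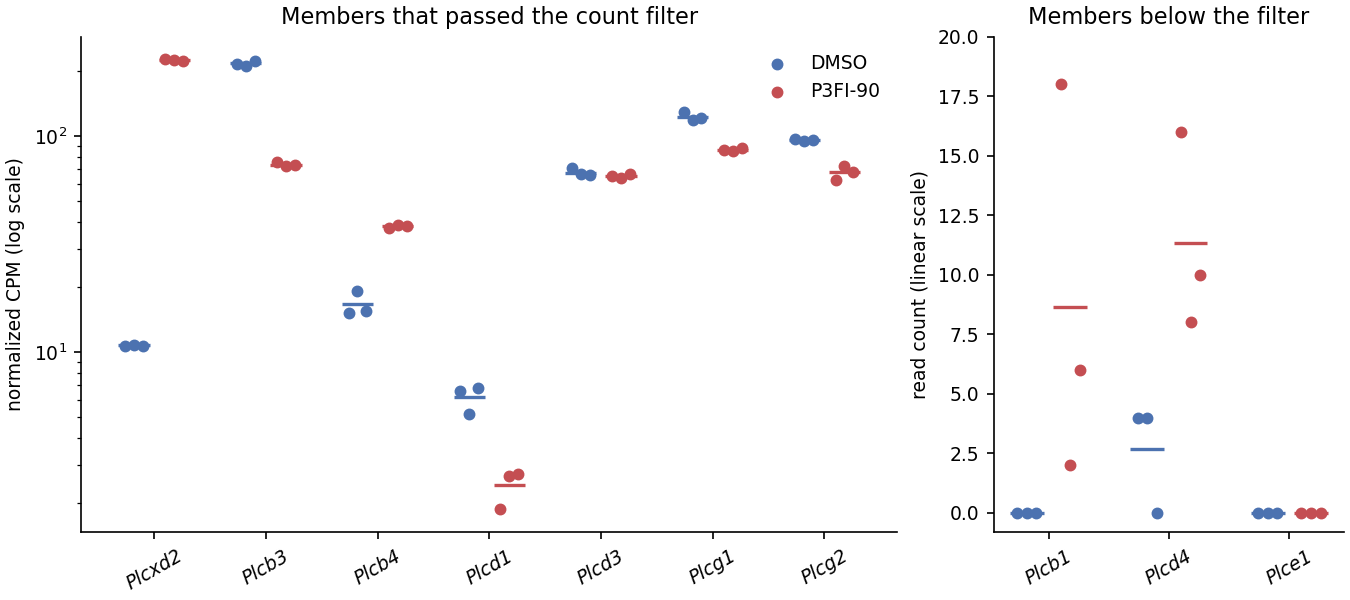
The left panel plots normalized CPM on a log scale for the 7 genes that passed the filter on low counts, and the right panel read counts on a linear scale for the other 3. Each point is a library, the short line is the group mean, DMSO is blue and P3FI-90 red. Plcxd2 goes from 10.7 to 224 CPM and Plcb3 from 216 to 73.6 CPM, while the groups of Plcd3 overlap.

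The genes of the table within 50 kb of Plcxd2 had other values. The closest gene in the table, Phldb2, which encodes a membrane-binding protein of the cell cortex, lies 5665 bases from it on the same strand, and had 133 CPM in DMSO and 119 CPM after P3FI-90 (−0.15 on the log2 scale with an SE of 0.048, edgeR adjusted p = 0.00973). This value is smaller in size than the move of the median of all genes, from 0.013 to 0.23, under scaling by total counts. The sign and call of Phldb2 may thus depend on the scaling. Cd96, at 25439 bases, had 0 reads in DMSO and 0.0267 CPM after P3FI-90. No exon of another gene overlaps an exon of Plcxd2 in GENCODE M21, and 0 of the 7091 windows of 50 bases in its transcript occur in another gene. An antisense gene, Gm15638, overlaps the gene with no shared exon bases and is not analysed here. Of the Plcxd2 transcript, 14.3% is coding, so most of its exon length is untranslated.

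The beta family held both the lowest and the highest log2 fold change of the classical enzymes above the filter. Plcb3, the beta enzyme with the most reads here, had 216, 211 and 222 CPM in DMSO and 75.6, 72.4 and 72.9 CPM after P3FI-90. Every P3FI-90 library was below every DMSO library, the mean was 2.94-fold lower, and the log2 fold change was −1.55 (SE 0.037). Plcb4, a beta enzyme best known from neurons and the retina, had 15.2, 19.2 and 15.5 CPM in DMSO and 37.5, 38.8 and 38.2 CPM after P3FI-90. Its groups did not overlap either, and the log2 fold change was 1.20 (SE 0.084), with the second DMSO library higher than the other two. Plcb1, which also works in the nucleus, had 0 reads in each DMSO library and 18, 2 and 6 reads after P3FI-90, at least 7.57-fold higher against a floor of 3 counts over the DMSO libraries. Counts of 2 outnumbered counts of 1 among genes in all 6 libraries, and it is not stated whether each mate of a pair was counted. Against a floor of 6 counts, which allows for that, the bound for Plcb1 is 3.79-fold. Of its 26 reads, 18 came from the first P3FI-90 library, and without that library, an alternative chosen after seeing the data, the bounds are 3.50-fold and 1.75-fold. Intervals cover counting error only, not the spread between libraries. Floors cover it for the DMSO libraries alone, with the P3FI-90 reads taken as observed. The intervals given for Plcd4 and Plcl2 take each count as a separate fragment, so they are too narrow if each mate was counted.

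The exons of Plcb3 overlap those of Ppp1r14b, a phosphatase inhibitor gene on the other strand, by 22 bases. Ppp1r14b fell from 309 to 140 CPM (−1.14 on the log2 scale with an SE of 0.044, edgeR adjusted p = 1.55e-11). The counting is not stated to use strand, but the shared stretch is 0.316% of the Plcb3 exon length.

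The gamma enzymes had similar values to each other. Plcg1, the widely expressed gamma enzyme downstream of growth factor receptors, had 129, 118 and 121 CPM in DMSO and 86.1, 85.2 and 87.7 CPM after P3FI-90, a log2 fold change of −0.51 (SE 0.044). Plcg2, best known from B cells and other blood cells, had 96.4, 94.5 and 95.9 CPM in DMSO and 62.5, 72.3 and 68.2 CPM after P3FI-90, a log2 fold change of −0.50 (SE 0.054). For both genes all P3FI-90 libraries lay below all DMSO libraries. Scaling by total counts brought the log2 fold change of Plcg1 to −0.29 and that of Plcg2 to −0.28. Whether the 2 changes differ was not tested. The leukocyte markers summed to at most 4.15 CPM in any library, and Ptprc, the pan-leukocyte marker, had counts of 23, 0 and 3 in DMSO and 26, 6 and 10 after P3FI-90. The exons of Plcg1 overlap those of Zhx3 on the other strand over 4.82% of their length, and Zhx3 rose from 6.04 to 21.9 CPM. Exons of the antisense gene Gm27206, which is not analysed here, overlap 3.16% of the Plcg1 exon length. Whether this stretch is separate from the one shared with Zhx3 was not examined.

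The delta family split into 1 gene that was lower, 1 with overlapping groups and 1 close to the detection limit. Plcd1, a calcium-responsive enzyme that binds PIP2 through its PH domain, had 6.61, 5.15 and 6.84 CPM in DMSO and 1.87, 2.67 and 2.74 CPM after P3FI-90. The groups did not overlap, and the log2 fold change was −1.36 (SE 0.20), the widest error among the 7 genes. Plcd3, which has about the same coding length as Plcd1, had 70.6, 66.5 and 65.7 CPM in DMSO and 64.9, 64.1 and 66.6 CPM after P3FI-90. These values overlap, and the log2 fold change was −0.052 (SE 0.050) with TMM and 0.16 (SE 0.049) under scaling by total counts, so its sign depends on the scaling. Plcd4 had 4, 4 and 0 reads in DMSO and 16, 8 and 10 after P3FI-90, 3.71 times as many per unit of depth (exact 95% interval from the counts, 1.69 to 9.29). These few reads are uncertain, since 29.8% of the exon length of Plcd4 overlaps exons of Zfp142 on the other strand, which rose from 27.5 to 60.1 CPM. Usp37, which overlaps the span of Plcd4 with no shared exon bases, rose from 45.8 to 121 CPM (edgeR, adjusted p = 3.04e-12). Plce1, the Ras-linked enzyme, had 0 reads in all 6 libraries, so that it was not detectable at this depth.

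Of the 7 genes that passed the filter, 2 had an adjusted p under 0.05 as higher and 4 as lower, beside the 79.3% called among all genes, and 6 had groups that did not overlap, beside 81.2%. Since the genes were proposed from this contrast, nothing is read from these counts. Their median log2 fold change was −0.50, against 0.013 over all genes tested. The 9 phosphoinositide phospholipase C genes together had 525 ± 9.91 summed CPM in DMSO and 334 ± 3.94 after P3FI-90 (SD, n = 3), a description over chosen genes. Within this sum Plcb3 alone went from 216 to 73.6 CPM, while Plcb4 rose from 16.6 to 38.1 CPM and the groups of Plcd3 overlapped. Over the same libraries, the share of Plcxd2 in the CPM of all 10 genes went from 2.00% ± 0.048 to 40.1% ± 0.55.

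**Figure D2:**
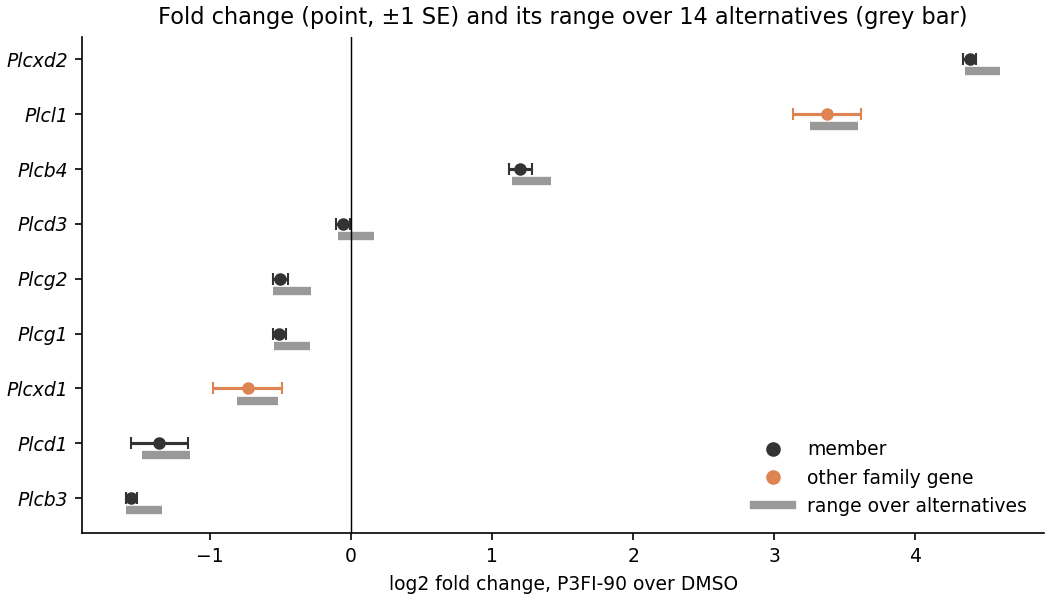
The x axis gives the log2 fold change of P3FI-90 over DMSO from edgeR, with bars of 1 SE, for the 7 listed genes above the filter (black) and for Plcl1 and Plcxd1 (orange). Grey bars show the range over 14 alternative settings. Plcxd2 stays between 4.35 and 4.60, and of these genes Plcd3 alone crosses 0, at 0.16 under scaling by total counts.

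To compare the genes with each other, CPM were divided by the exon length of each gene. In DMSO, Plcb3 was highest at 31.1 ± 0.77 CPM per kb (SD, n = 3), followed by Plcg2 at 22.2 ± 0.23, Plcd3 at 19.9 ± 0.78 and Plcg1 at 15.6 ± 0.73 CPM per kb, with no overlap between the libraries of neighbours in this order. Plcd1 at 2.00 ± 0.30 and Plcb4 at 1.85 ± 0.25 CPM per kb overlapped each other, and Plcxd2 was next at 1.50 ± 0.0085 CPM per kb. After P3FI-90, Plcxd2 was first at 31.3 ± 0.36 CPM per kb. Behind it stood Plcd3 at 19.2 ± 0.37, Plcg2 at 15.7 ± 1.14, and Plcg1 at 11.0 ± 0.16 with Plcb3 at 10.6 ± 0.24 CPM per kb, the last pair overlapping. Plcb4 at 4.25 ± 0.071 and Plcd1 at 0.784 ± 0.16 CPM per kb followed, and Plcd4 and Plcb1 were below 0.1 CPM per kb in both groups.

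Among 12263 tested genes with a length, the level of Plcxd2 per kb ranked 9765 in DMSO and 1645 after P3FI-90, and that of Plcb3 1841 and 5030. With the length of the longest coding transcript in place of all exons, Plcg1 (27.6 CPM per kb) came before Plcd3 (22.4) and Plcg2 (22.2) in DMSO, so the order of these genes depends on which isoform is taken. Plcxd2 has a single annotated transcript, and its level per kb was the same with either length. It was first after P3FI-90 with both.

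**Figure D3:**
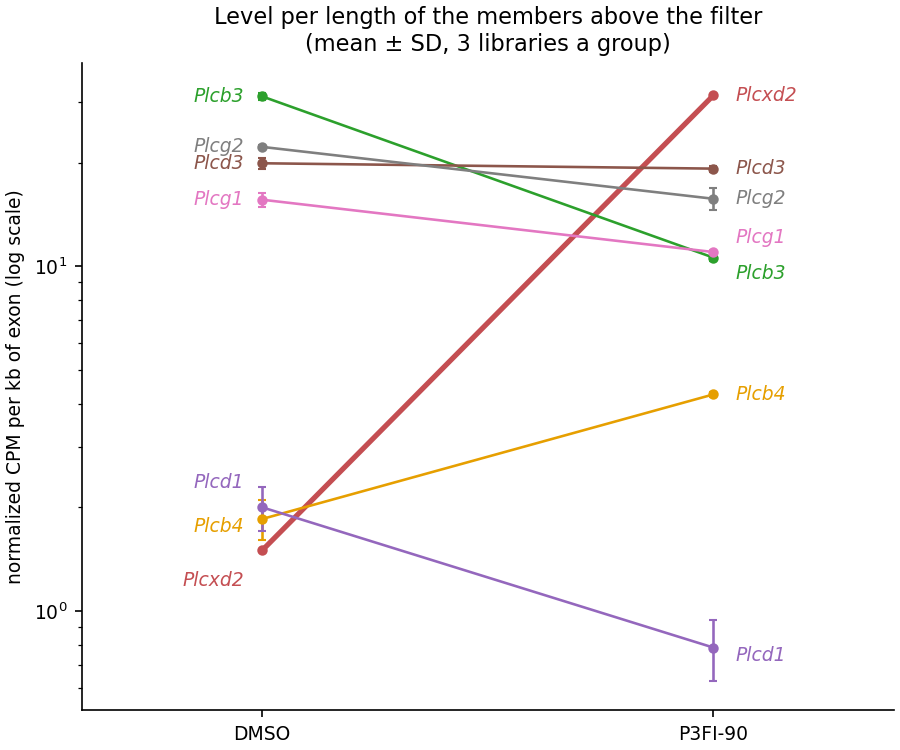
Lines join the mean normalized CPM per kb of exon (log scale, ± SD over 3 libraries) in DMSO and after P3FI-90 for the 7 genes above the filter. Plcxd2, drawn thick, goes from the lowest of the 7 at 1.50 to the highest at 31.3, while Plcb3 goes from the highest at 31.1 to 10.6.

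The family has 8 further genes in the table that are not on the list, of which Plcl1 and Plcxd1 passed the filter. Plcl1, a catalytically inactive relative that binds inositol trisphosphate, had 18, 13 and 23 reads in DMSO and 222, 242 and 179 after P3FI-90. It rose from 0.545 ± 0.11 to 5.71 ± 0.63 CPM (SD, n = 3), and the log2 fold change was 3.37 with an SE of 0.24 (edgeR, adjusted p = 1.08e-08). Plcxd1, the other PLCXD gene with reads in these cells, fell. It had 2.02, 2.30 and 2.39 CPM in DMSO and 1.36, 1.38 and 1.29 CPM after P3FI-90, and its log2 fold change was −0.73 with an SE of 0.24 (edgeR, adjusted p = 0.0132). The call of Plcxd1 was lost under scaling by total counts (adjusted p = 0.0645), and 29.3% of its exon length overlaps Gtpbp6 on the other strand, which had a log2 fold change of 0.054 (adjusted p = 0.587).

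The other 6 were below the filter. Plcl2, the second inactive relative, had 0, 3 and 2 reads in DMSO and 10, 8 and 14 after P3FI-90, 5.59 times as many per unit of depth (exact 95% interval from the counts, 2.16 to 18.4). Plcb2, the beta enzyme of blood cells, had 2, 0 and 2 reads in DMSO and 0 after P3FI-90. Plch1 and Plch2 had at most 16 reads in any library with overlapping groups, and the third PLCXD gene, Plcxd3, and the sperm enzyme Plcz1 had 0 reads throughout.

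The genes whose pattern over the 6 libraries was most like that of Plcxd2 were Fam171b, Pth2r, Siglecg, Ddit3 and Arl9, measured by the root mean square difference of log2 CPM centred on the DMSO mean among 11510 genes. Fam171b was nearest at 0.0875 log2 units, with 1.73, 1.58 and 1.43 CPM in DMSO and 33.3, 33.6 and 35.5 CPM after P3FI-90. Ddit3, which encodes the stress transcription factor CHOP, differed by 0.153 log2 units and went from 5.51, 5.50 and 5.53 CPM to 99.0, 105 and 96.0 CPM. Siglecg, a lectin receptor gene of B cells, went from 0.558 ± 0.037 to 11.3 ± 0.79 CPM. Pth2r had 0 reads in DMSO, and its likeness rests on the prior count of 2, since with a prior count of 0.5 it ranked 198. Arl9, with 0.081 ± 0.011 CPM in DMSO and 2.77 ± 0.58 CPM after P3FI-90, also depends on it and ranked 17 with a prior count of 0.5. Of the 5 genes, 3 stayed among the nearest 5 with that prior count. With groups this far apart, the measure mostly reflects the size of the fold change.

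The remaining genes of phosphoinositide signalling were read from 6 lists of 152 genes, of which 131 were tested, 53 called higher and 55 lower. The list of inputs to phospholipase C (G protein subunits, receptors, adaptors and small GTPases) had 6 genes higher and 12 lower among 24 tested (75.0% called, against 79.3% of all genes), with a median log2 fold change of −0.15. Under scaling by total counts 11 were higher and 10 lower. The adaptor genes Gab1 and Gab2 rose, with log2 fold changes of 1.02 (SE 0.077) and 1.36 (SE 0.097). Gnb4, a G protein beta subunit gene, and Rac1, a small GTPase gene, fell, with values of −1.02 (SE 0.091) and −0.96 (SE 0.031). Gnaq and Gna11 encode G protein alpha subunits that activate the beta enzymes, and were named after their values were seen. They did not pass the threshold with TMM, with log2 fold changes of −0.046 (SE 0.048) and −0.070 (SE 0.054). Both are smaller in size than the move of the median of all genes, from 0.013 to 0.23, under total counts. Whether Gnaq and Gna11 would pass under that scaling was not tested. Gna14 and Gna15, alpha subunit genes of the list also named after their values were seen, were below the filter.

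The genes that make PIP2 and its precursors were counted next. Of 19 genes tested, 10 were higher and 4 lower (73.7% called, median log2 fold change 0.16), or 12 higher and 4 lower under total counts. The number lower was 7 under upper-quartile scaling and 6 without the first DMSO library. The 4 largest changes were all rises: Cds1, which makes the precursor CDP-diacylglycerol, by 1.57 (SE 0.24), Pip5k1b by 1.39 (SE 0.24), Pip4k2c by 1.30 (SE 0.040) and Pip5k1a by 0.98 (SE 0.038) on the log2 scale. Pip5k1a, a kinase that makes PIP2, had 115 ± 3.34 CPM in DMSO and 226 ± 7.46 CPM after P3FI-90 (SD, n = 3).

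In the inositol trisphosphate and calcium list all 32 genes were tested, 15 were higher and 14 lower (90.6% called, median 0.12), or 18 and 11 under total counts. Rcan1, a calcineurin regulator that NFAT induces, rose from 15.7 ± 0.88 to 64.5 ± 3.69 CPM, or by 2.04 on the log2 scale with an SE of 0.066 (edgeR, adjusted p = 2.41e-12). Nfatc4 fell by 2.80 (SE 0.50), Isyna1, the enzyme that makes inositol phosphate from glucose phosphate, by 1.44 (SE 0.041) and Itpka, an inositol trisphosphate kinase, by 1.24 (SE 0.33) on the log2 scale. The receptor genes for inositol trisphosphate, named after their values were seen, had log2 fold changes of 0.17 for Itpr1, 0.42 for Itpr2 and −0.050 for Itpr3, of which the last did not pass (edgeR, adjusted p = 0.243). The Itpr3 value is smaller in size than the move of the median of all genes under total counts, so its sign may depend on the scaling.

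In the diacylglycerol list 19 of 27 genes were tested, 6 were higher and 9 lower (78.9% called, median −0.24), or 8 and 9 under total counts. The diacylglycerol kinases, which remove the lipid, were split. Dgkh rose from 9.85 ± 1.39 to 37.9 ± 3.71 CPM and Dgke from 15.0 ± 1.36 to 35.5 ± 0.60 CPM, with log2 fold changes of 1.95 (SE 0.10) and 1.24 (SE 0.076), while Dgka fell by 1.32 (SE 0.070). Marcksl1, of the family of protein kinase C substrates that bind PIP2, fell by 1.49 (SE 0.050). The value farthest to the right among the lists is Rasgrp3, a diacylglycerol-binding activator of Ras, which had 0 reads in DMSO and 13, 25 and 15 after P3FI-90, at least 15.4-fold higher against a floor of 3 counts and 7.72-fold against 6. It lies outside the rule for naming genes and was named after its values were seen.

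In the list of phosphoinositide 3-kinases and phosphatases, which use the same lipids, 9 of 17 tested genes were higher and 7 lower (94.1% called, median 0.15), or 10 and 5 under total counts. Synj1, a PIP2 phosphatase, rose from 33.5 ± 1.26 to 116 ± 3.87 CPM (log2 fold change 1.79, SE 0.051). Pik3r3 and Pik3cb rose by 1.37 (SE 0.12) and 1.33 (SE 0.036), and Pik3cd fell by 1.09 (SE 0.12) on the log2 scale. Of the phospholipases outside the C class, with sphingomyelinases and related enzymes, 7 of 20 were higher and 9 lower (80.0% called, median −0.013), or 9 and 6 under total counts. Pla2g7, which inactivates platelet-activating factor, fell from 21.9 ± 1.38 to 5.96 ± 0.54 CPM (log2 fold change −1.88, SE 0.10). Pnpla7 rose by 1.04 (SE 0.099) and Gde1 by 0.82 (SE 0.071), and Gdpd5 fell by 0.97 (SE 0.058). The shares called in the 6 lists, from 73.7% to 94.1%, lie on both sides of the share among all genes, and nothing particular to a list is read from them. The genes called were tested with edgeR over all 12288 genes, and the adjusted p of the genes named by the rule was at most 0.00303, that of Itpka. For Itpr1 and Itpr2 it was 0.00614 and 0.00119, for Gnaq 0.390 and for Gna11 0.249.

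**Figure D4:**
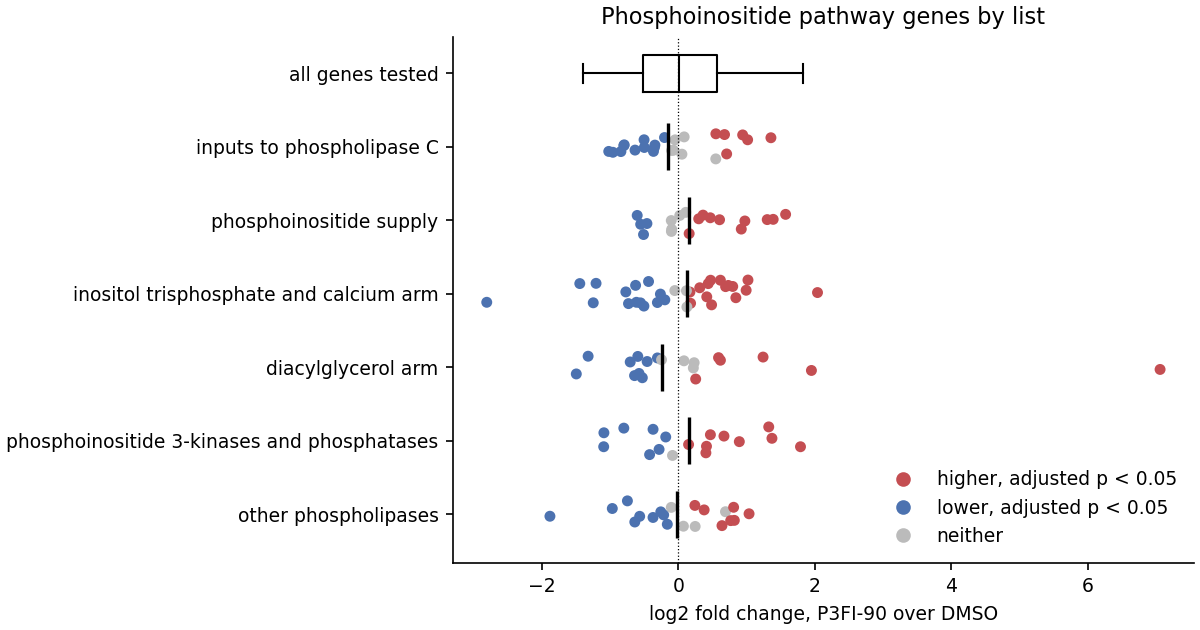
Each point is a tested gene, placed by its log2 fold change of P3FI-90 over DMSO and coloured by its call at an adjusted p under 0.05. Black bars are list medians, and the box over all 12288 genes spans the quartiles with whiskers at the 5th and 95th percentiles. The 6 medians lie between −0.24 and 0.16, and the point at 7.05 is Rasgrp3, a fitted value for a gene with 0 reads in DMSO.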

How the data were processed

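Expression was measured by mRNA sequencing in 4T1 cells after 24 h of DMSO or 10 µM P3FI-90, with 3 libraries per group. The authors deposited read counts per gene as whole numbers without normalization. The submitters' processing notes name CASAVA, HISAT2, StringTie and the build GRCm39, without versions. The counting tool, annotation and strandedness are not given in the sources used here. Of 22401 rows, 285 of assembled transcripts (0.483% to 0.556% of counts) were left out. Samples were grouped by their titles.

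Counts were filtered with filterByExpr, scaled by TMM and compared with the quasi-likelihood test of edgeR 4.0.16 (R 4.3.3), with Benjamini-Hochberg adjustment over 12288 genes. The depth of 31327094 to 37395732 counts sets the precision of low counts. Exon lengths, overlaps and 50-base windows came from GENCODE M21 (GRCm38), which holds 21995 of the 22116 named genes, and promoters from RefSeq GRCm38.p6, so only promoter coordinates are given, in that build. No protein sequences were used here.

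The genes described, the lists and the tests were chosen with earlier results of these data known. Named were the 10 genes, the rest of the family, the genes of the table whose span overlaps one of the 10, and the 5 genes most like Plcxd2. Genes of the table within 50 kb of Plcxd2 were named too, as was Gtpbp6, which overlaps Plcxd1. The antisense genes Gm15638 and Gm27206, Kdm3b and marker genes were named as checks. Genes named from a pathway list were up to 4 with the largest absolute log2 fold change among those with an adjusted p under 0.05, at least 1 CPM in a group and no overlap. The test was checked on simulated counts with far fewer changed genes than in these data. That check therefore does not cover a change this broad. Alternatives were other scalings, filters and tools (DESeq2 1.42.0, limma-voom 3.58.1), a replicate block and each library left out. Equal replicate numbers did not pair the libraries (correlations of deviations −0.021, 0.015 and 0.0049).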

Additional observations from a re-analysis of the deposited data

How the results depend on the processing

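Across 14 alternatives, the log2 fold change of Plcxd2 was 4.60 under scaling by total counts, 4.35 under upper quartiles and 4.40 with at least 10 counts in every library, and 4.37 to 4.39 with each library left out. Plcb3 stayed between −1.59 and −1.34, Plcb4 between 1.14 and 1.42, Plcd1 between −1.48 and −1.14, Plcg1 between −0.55 and −0.29 and Plcg2 between −0.55 and −0.28. For each of these the highest value came from total counts, where the median of all genes was 0.23 against 0.013. Plcd3 ran from −0.091 to 0.16, the latter under total counts. The number of the 10 genes past the call rule as higher, a description here, was 2 and became 3 under total counts (with Plcd3) and without the filter (with Plcb1), and 4 were lower under each of these settings. Under total counts the inputs to phospholipase C had 11 genes higher, and under upper quartiles the phosphoinositide supply list had 7 lower, and the cause was not tested. With the replicate block, 4802 genes were higher and 4722 lower, Plcxd2 was at 4.38, 2 of the genes described stayed past the threshold as higher and 4 as lower, and of the 6 lists other phospholipases alone changed in number, from 9 to 8 lower. Plcb1 and Plcd4 are limited by depth.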
